A study of Homo sapiens with 6 samples.

Results

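BRA-binding events called near 7 pluripotency genes were examined in differentiating H9 cells, an established human embryonic stem cell line. A called peak was counted as a member when its midpoint fell within the gene body of POU5F1, NANOG, SOX2, PRDM14, DNMT3B, SALL4 or ZFP42, or within 50 kb on either side of it, on hg19. By this rule, 49 of the 54994 peaks in the 4 deposited lists were members. All cells received FGF2 (20 ng/ml) and the PI3 kinase inhibitor LY294002 (10 μM) for 36 h. FLyA medium also held activin A (100 ng/ml) and yields endoderm progenitors, whereas FLyB medium held BMP4 (10 ng/ml) in its place and yields mesoderm progenitors. ChIP-seq, which sequences the DNA fragments pulled down with a protein, was carried out in each medium with an R&D Systems antibody and with a Santa Cruz antibody to BRA. This gave 1 library per medium and antibody, so the antibodies are the only repeat of each medium. The lists differ in length, with 25864 (FLyA) and 23687 (FLyB) R&D Systems peaks against 2436 and 3007 Santa Cruz peaks. The study describes the Santa Cruz libraries as noisier and lower in unique reads, and the lack of a Santa Cruz peak does not show that a site is unbound. The 2 input libraries were not analysed here. The lists give the position of each peak, always 400 bp wide, without a height or a read count. The number of reads behind a peak is therefore unknown, and a site missing from a list is not shown to be unbound.

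Pluripotent cells are held in their undifferentiated state by a small network of transcription factors. POU5F1 (OCT4) and SOX2 bind DNA side by side and, with the homeodomain factor NANOG, occupy their own regulatory regions and those of many other genes. As cells leave pluripotency towards the primitive streak, the T-box factor BRA is switched on while parts of this network are still expressed. PRDM14 and SALL4 are further DNA-binding regulators of the network, ZFP42 (REX1) is a zinc finger protein used as a marker of the undifferentiated state, and DNMT3B is a de novo DNA methyltransferase that is abundant in early pluripotent cells.

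At the 5′ ends of NANOG and DNMT3B, a peak was called in the R&D Systems FLyA list and none at that place in any of the other 3 lists. The same held at PRDM14, for which no promoter sequence was matched. The 250 bases upstream of an annotated start of NANOG and of DNMT3B are shown. They were taken from RefSeq on GRCh38.p14, where they are chr12:7789152-7789401 and chr20:32779602-32779851, both on the plus strand. The peaks are on hg19, so the exact bases under each peak were not read. The annotated starts were not matched to the 5′ ends of the hg19 windows. The DNMT3B stretch in particular may therefore lie away from its peak, and it is not to be read as the sequence at that peak. Capitals mark shortened letters of the POU and SOX recognition sequences side by side, TTTGCATNACAAT on either strand. Both parts are shorter than the POU octamer and the SOX letters counted below.

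NANOG upstream: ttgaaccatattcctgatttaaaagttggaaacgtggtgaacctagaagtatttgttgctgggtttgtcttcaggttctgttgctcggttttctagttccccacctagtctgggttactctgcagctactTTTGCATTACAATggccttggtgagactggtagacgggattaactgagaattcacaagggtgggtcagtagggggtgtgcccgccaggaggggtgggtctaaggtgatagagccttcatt

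DNMT3B upstream: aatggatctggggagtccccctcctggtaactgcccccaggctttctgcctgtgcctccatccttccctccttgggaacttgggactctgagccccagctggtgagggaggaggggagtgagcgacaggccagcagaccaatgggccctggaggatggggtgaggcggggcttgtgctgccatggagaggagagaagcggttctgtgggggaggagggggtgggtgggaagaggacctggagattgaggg

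The capitals in the NANOG sequence lie 120 to 108 bases before its start. Such letters were present in 0.0171% of the 35093 RefSeq promoters, NANOG among them. These promoters run from 250 bases before to 50 after each start. The scan was added after the data were seen, so this share does not measure how unusual the NANOG match is. The DNMT3B sequence held none of these letters. Its GC content was 64.0%, against 47.6% for NANOG. Promoter sequences were matched by gene name for 4 of the 7 genes (NANOG, SOX2, DNMT3B and ZFP42). Their annotated starts need not be the 5′ ends used for the windows. The T-box letters AGGTGTGA, read on both strands, were in none of these 4 and in 0.980% of all promoters. The shorter letters GGTGTGA, which lie within them, were in the promoter of SOX2 and in 3.45% of all promoters. The POU octamer ATGCAAAT (1.77% of all promoters) and the SOX letters ATTGTT (10.1%), read on both strands, were in none of the 4. The capitals in the NANOG sequence thus match the shortened letters only. These are matches of letters in a short window and not binding sites.

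Across the 7 windows, which together span 809 kb, the R&D Systems FLyA list held 26 peaks and the FLyB list 18. The Santa Cruz lists held 3 peaks in FLyA and 2 in FLyB. DNMT3B and SOX2 had the most FLyA peaks, 7 and 6, and NANOG and ZFP42 the fewest, 1 each. In FLyB, DNMT3B and SALL4 had 5 peaks each, whereas NANOG and ZFP42 had none. Peak number was higher in FLyA than in FLyB at 5 genes, equal at POU5F1 and lower at SALL4. Each count comes from 1 library. With the R&D Systems antibody the windows held 0.101% of the FLyA list and 0.0760% of the FLyB list, and with Santa Cruz 0.123% and 0.0665%. FLyA was higher by 0.40 on the log2 scale with R&D Systems and by 0.89 with Santa Cruz, a mean of 0.65. The Santa Cruz value rests on only 3 and 2 peaks. With media paired by antibody the exact two-sided permutation p was 0.500, the smallest that 2 pairs allow, so this design cannot reach significance.

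**Figure D1:**
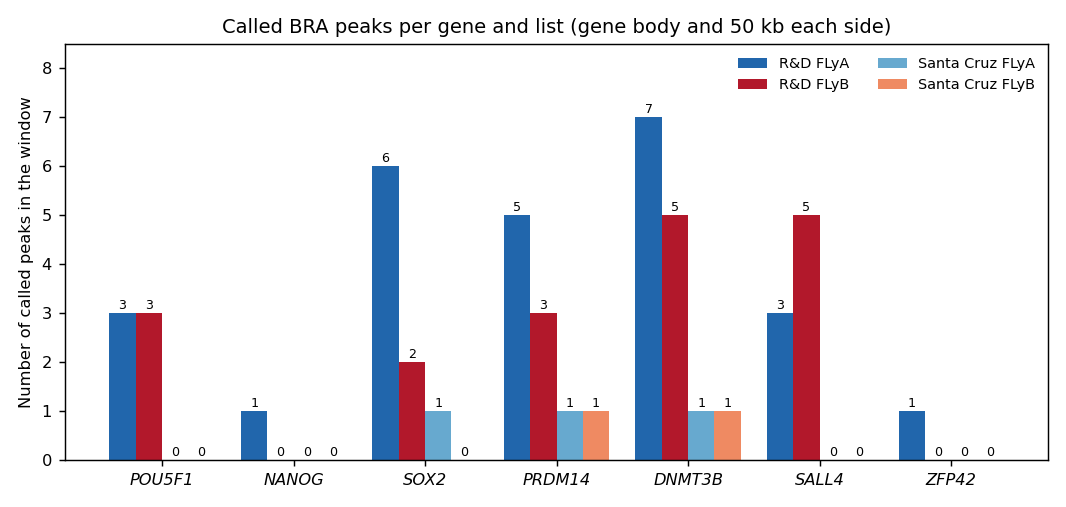
Number of called BRA peaks in each gene's window (gene body and 50 kb on each side), with a bar per deposited list and the count above it. DNMT3B and SOX2 stand highest in R&D Systems FLyA with 7 and 6 peaks, SALL4 is the gene with more FLyB peaks (5) than FLyA peaks (3), and NANOG and ZFP42 have a peak in the R&D Systems FLyA list only.

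To set these counts beside the rest of the genome, the chromosomes were divided into tiles. At a width of 100 kb, 47.1% of 30426 tiles held a peak of the R&D Systems FLyA list and 40.3% a peak of the FLyB list. Of the 7 windows, all 7 held an FLyA peak and 5 an FLyB peak. With 20 kb on each side of the gene these were 6 and 5, as the ZFP42 peak fell outside, and with 100 kb 7 and 6, as NANOG gained an FLyB peak. For the Santa Cruz lists the tile shares were 7.26% in FLyA and 8.49% in FLyB, and 3 and 2 of the windows held a peak. Among tiles as long as its own window, the 6 FLyA peaks of SOX2 were matched or exceeded in 0.935% of tiles, the 7 of DNMT3B in 1.17% and the 5 of PRDM14 in 2.80%. For FLyB, the 5 peaks of SALL4 were matched in 3.42% of tiles and the 5 of DNMT3B in 5.18%. As many as the 2 FLyB peaks of SOX2 were held by 18.7% of tiles. At least 1 FLyA peak, the count at NANOG and ZFP42, was found in 49.0% and 49.5% of tiles of those lengths. The tiles covered all chromosomes, X and Y included, and stretches where reads cannot be mapped were not left out. Tiles in such stretches are empty and lower these percentages. The windows were placed on genes and the tiles were not, so a higher count in a window cannot be called particular to these genes.

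**Figure D2:**
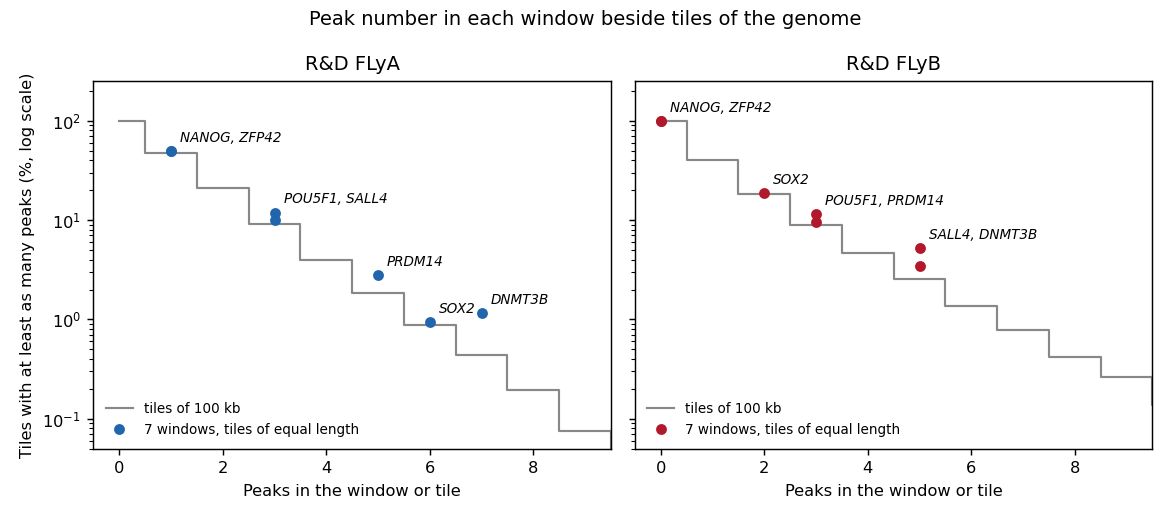
Number of R&D Systems peaks in each window (x axis) against the percentage of tiles of the same length that held at least as many (y axis, log scale), with FLyA on the left and FLyB on the right. The grey line gives the same percentage for tiles of 100 kb. SOX2 moves from 0.935% in FLyA to 18.7% in FLyB, and SALL4 from 11.9% to 3.42%.

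The positions of peaks within each locus are drawn by distance from the gene's 5′ end. Gene ends were known to 1 kb, so each distance carries an uncertainty of that size. A peak of the R&D Systems FLyA list lay within 1 kb of the 5′ end at 5 of the 7 genes (NANOG, POU5F1, PRDM14, DNMT3B and SALL4). In FLyB this was so at 2 genes (POU5F1 and SALL4), and at 3 when 2 kb was allowed, with DNMT3B added. The cut of 1 kb equals the precision of the gene ends. POU5F1 lay near it, at 1.0 kb in FLyA and 0.9 kb in FLyB, so its place in both counts is uncertain. The share of all genes with a peak at the 5′ end was not computed, since no hg19 annotation was used here, so these counts have no background beside them. Gene bodies held 8 FLyA and 3 FLyB peaks in 109 kb, which is 7.34 and 2.75 peaks per 100 kb. The 50 kb upstream held 11 and 7 peaks, and the 50 kb downstream 7 and 8, over 350 kb each.

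**Figure D3:**
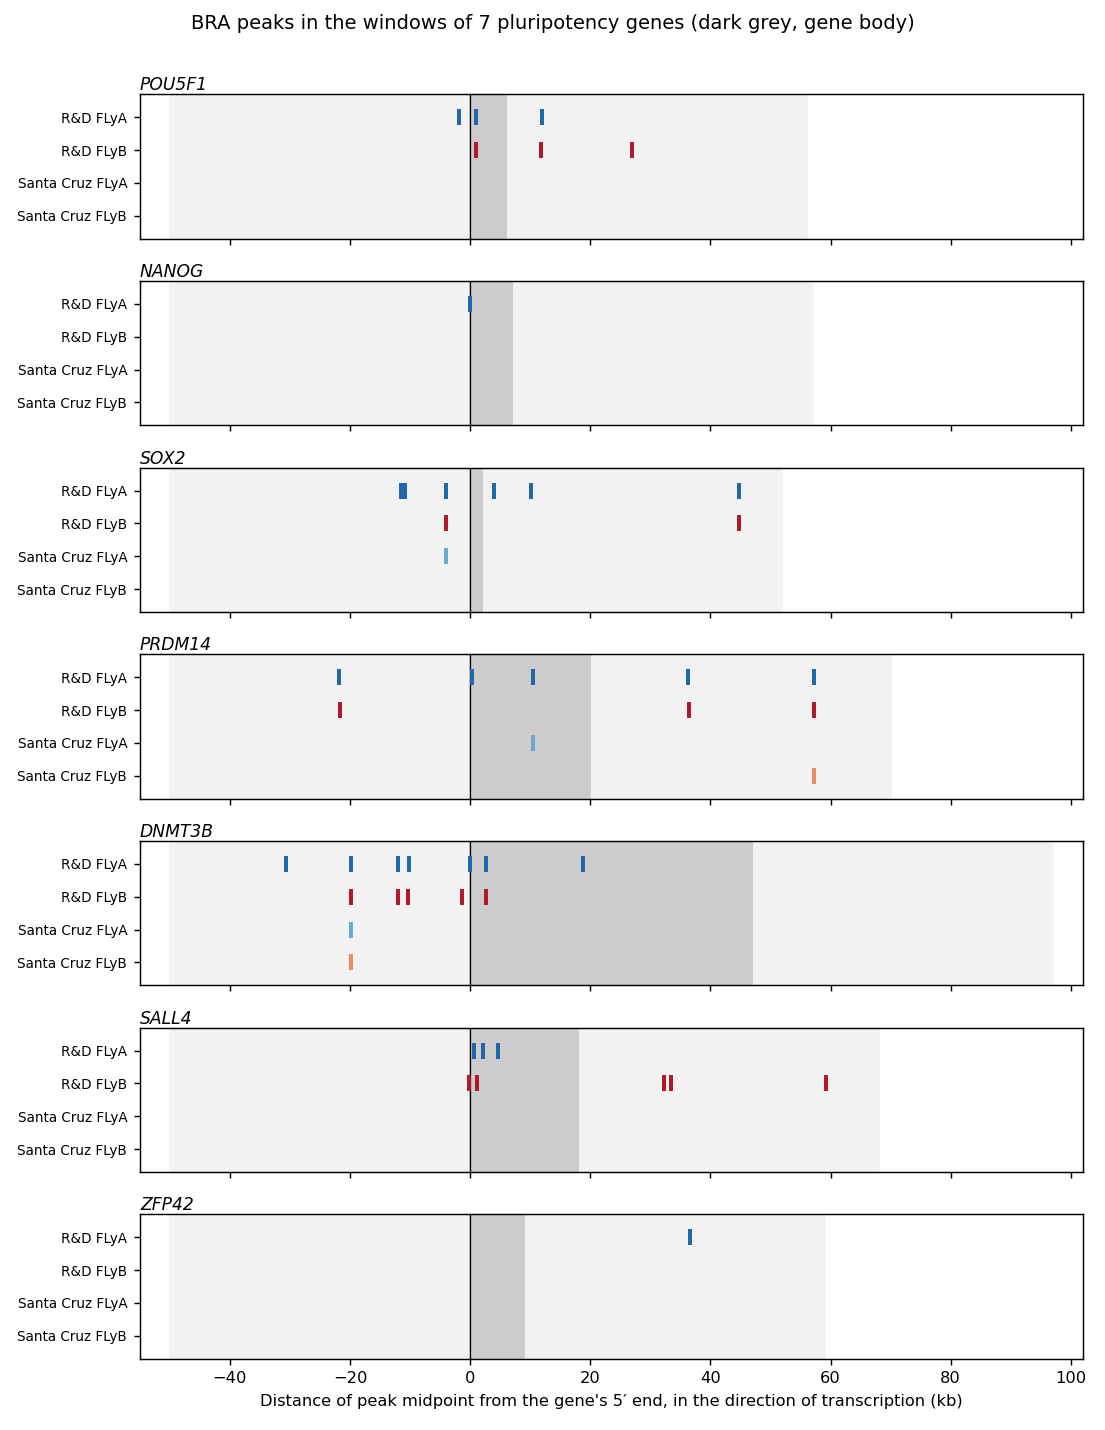
Midpoints of called BRA peaks by distance from the gene's 5′ end in kb, in the direction of transcription, for each of the 7 genes and 4 lists. Light grey marks the window and dark grey the gene body. FLyA peaks sit within 1 kb of the 5′ end at 5 genes, a count with no background from other genes. Gene ends are known to 1 kb only, which leaves the place of POU5F1 in this count uncertain. The DNMT3B site 19.8 kb upstream is the only place with a mark in all 4 rows.

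POU5F1 lies on the minus strand at chr6:31132000-31138000 and encodes OCT4, a POU-domain factor at the centre of the pluripotency network. It had 3 peaks in each R&D Systems list. Inside the gene, 0.9 kb from its 5′ end, a site was called in both media, at chr6:31136841-31137240 in FLyA and chr6:31136876-31137275 in FLyB, with midpoints 35 bp apart. A shared site also lay 11.9 kb from the 5′ end, beyond the 3′ end of the gene, with midpoints 124 bp apart. The third FLyA peak, at chr6:31139655-31140054, was 1.9 kb upstream of the 5′ end, and the nearest FLyB peak to it was 2.78 kb away. The third FLyB peak was 27.0 kb downstream at chr6:31110811-31111210. POU5F1 thus had 2 shared sites and 1 site called in each medium alone. Neither Santa Cruz list held a peak in the window. The locus is gene-dense, with PSORS1C1, CDSN, PSORS1C2, CCHCR1 and TCF19 as protein-coding neighbours within 50 kb on GRCh38, so a peak in this window may belong to another gene.

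NANOG, on the plus strand at chr12:7942000-7949000, encodes a homeodomain factor that sustains self-renewal. Its window held 1 peak in all 4 lists together, the R&D Systems FLyA peak at chr12:7941709-7942108. The midpoint of this peak was 0.1 kb upstream of the 5′ end, so it covered the start of the gene within the 1 kb precision. The nearest FLyB peak was 71.1 kb from the 5′ end, at chr12:8012927-8013326, which is 14.1 kb outside the window. CLEC4C, NANOGNB and SLC2A14 are its protein-coding neighbours.

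SOX2, on the plus strand at chr3:181430000-181432000, encodes an HMG-box factor that partners OCT4 and later marks neural progenitors. It had 6 FLyA peaks against 2 FLyB peaks with the R&D Systems antibody, and each FLyB peak coincided with an FLyA peak. The site 4.1 kb upstream was called at chr3:181425721-181426120 in FLyA and at chr3:181425694-181426093 in FLyB, 27 bp apart. The Santa Cruz FLyA list held it too, at chr3:181425764-181426163, 43 bp from the R&D Systems FLyA midpoint, which makes it a site of 3 lists. The other shared site was 44.7 kb downstream of the start, with midpoints 26 bp apart. The 4 peaks called in FLyA alone formed a band around the gene, 11.6 and 10.9 kb upstream and 4.0 and 10.1 kb downstream of its 5′ end. Their nearest FLyB peaks were 6.77 to 14.3 kb away. No protein-coding gene other than SOX2 lies within 50 kb, and the gene sits inside the non-coding transcript SOX2-OT.

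PRDM14, on the minus strand at chr8:70964000-70984000, encodes a PR-domain protein of the pluripotent and germ cell programmes. It had 5 FLyA and 3 FLyB peaks with the R&D Systems antibody. All 3 FLyB peaks were shared with FLyA, 21.7 kb upstream and 36.4 and 57.2 kb from the 5′ end beyond the gene, with midpoints 97, 16 and 3 bp apart. The 2 peaks inside the gene were called in FLyA alone. Of these, the peak at chr8:70983452-70983851 lay 0.3 kb from the 5′ end, 22.0 kb from the nearest FLyB peak. The other, at chr8:70973321-70973720, lay 10.5 kb into the gene and was also called with the Santa Cruz antibody in FLyA (midpoints 53 bp apart). The Santa Cruz FLyB peak was elsewhere, on the shared site at 57.2 kb, 48 bp from the R&D Systems FLyB midpoint. The Santa Cruz peaks of the media were thus 46.8 kb apart at this gene. NCOA2 is the protein-coding neighbour within 50 kb.

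DNMT3B, on the plus strand at chr20:31350000-31397000, had the most peaks, with 7 in FLyA and 5 in FLyB. All but 3 of these 12 were upstream of the gene. At 19.8 kb upstream a peak was called in all 4 lists, at chr20:31330027-31330426 (R&D Systems FLyA), chr20:31330015-31330414 (R&D Systems FLyB), chr20:31330032-31330431 (Santa Cruz FLyA) and chr20:31329981-31330380 (Santa Cruz FLyB). The R&D Systems midpoints at this site were 12 bp apart. Of the 43081 separate sites obtained by joining overlapping peaks of the 4 lists, 226 (0.525%) were called in all 4 lists, and this was the only such site in the 7 windows. Sites 12.0 and 10.3 kb upstream and 2.6 kb into the gene were also shared by the media, with midpoints 18, 69 and 57 bp apart. At the 5′ end itself the media differed in position. The FLyA peak at chr20:31349755-31350154 lay at the start of the gene within the 1 kb precision. The FLyB peak at chr20:31348379-31348778 was 1.4 kb upstream, with midpoints 1376 bp apart. Peaks 30.6 kb upstream and 18.8 kb into the gene were called in FLyA alone. COMMD7, MAPRE1 and EFCAB8 are the protein-coding neighbours, so the upstream sites may also belong to a gene other than DNMT3B.

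SALL4, on the minus strand at chr20:50401000-50419000, encodes a zinc finger factor of the pluripotency network. It was the gene with more FLyB than FLyA peaks, 5 against 3. All 3 FLyA peaks lay inside the gene, 0.7, 2.1 and 4.7 kb from its 5′ end. In FLyB, a peak at chr20:50418987-50419386 lay 0.2 kb upstream of the 5′ end and another 1.1 kb inside. The nearest FLyA and FLyB peaks overlapped by 20 bp, with midpoints 380 bp apart, far more than the 3 to 124 bp of the other shared sites described above. The remaining 3 FLyB peaks were 32.3, 33.5 and 59.2 kb from the 5′ end, beyond the gene, and 27.7 to 31.8 kb from any FLyA peak. ATP9A is the protein-coding neighbour within 50 kb, so these distal peaks may belong to it. No Santa Cruz peak fell in the window.

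ZFP42, on the plus strand at chr4:188917000-188926000, had 1 peak, in R&D Systems FLyA, at chr4:188953416-188953815. It was 36.6 kb from the 5′ end and beyond the gene. The nearest FLyB peak to the 5′ end of ZFP42 was 112.6 kb upstream. No protein-coding neighbour lies within 50 kb.

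The share of sites common to the media was then compared with that of the whole lists. Of the 26 FLyA peaks near the 7 genes, 12 overlapped an FLyB peak by at least 1 bp, which is 46.2% (exact 95% interval 26.6 to 66.6%) against 33.0% of all R&D Systems FLyA peaks. Of the 18 FLyB peaks, 12 overlapped an FLyA peak, which is 66.7% (41.0 to 86.7%) against 36.1% of all FLyB peaks. The interval for FLyA includes the share of the whole list and the interval for FLyB does not. When 200 bp of overlap was required, the FLyB share was 61.1% (35.7 to 82.7%) beside 33.6% of the whole list. These intervals cover counting error only and treat neighbouring peaks as independent, which they are not. The 12 shared sites lay at DNMT3B (4), PRDM14 (3), POU5F1 (2), SOX2 (2) and SALL4 (1). Their midpoints were a median of 31 bp apart, beside 38 bp for all shared FLyA peaks.

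Joined across lists, the peaks formed 32 sites, of which 14 (43.8%) were called in FLyA alone, 6 (18.8%) in FLyB alone and 12 (37.5%) in both media with the R&D Systems antibody. Of all 43081 sites these classes made up 40.2%, 35.0% and 19.8%, and the rest had no R&D Systems peak. The FLyA share was thus close to that of the whole series. Sites of FLyA alone occurred at all 7 genes and those of FLyB alone at 3 (DNMT3B, POU5F1 and SALL4). Within 5 kb of a 5′ end lay 7 of the 14 FLyA sites, 2 of the 6 FLyB sites and 4 of the 12 shared sites. Beyond 10 kb lay the other 7, 4 and 8. These counts by distance are small and have no background from other genes. A peak of the other medium lay within 10 kb, without overlap, for 7 of the 14 FLyA peaks, 50%, beside 23.7% of all R&D Systems FLyA peaks that overlapped none. For FLyB this was 2 of 6, 33.3%, beside 31.1%. The FLyA peaks are not independent. At SOX2, those 6.77, 7.49 and 8.07 kb away were all measured to the same FLyB peak. The windows also held 2.225 R&D Systems FLyB peaks per 100 kb, beside a mean of 0.778 over the tiles. Whether this density accounts for the FLyA contrast was not tested.

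**Figure D4:**
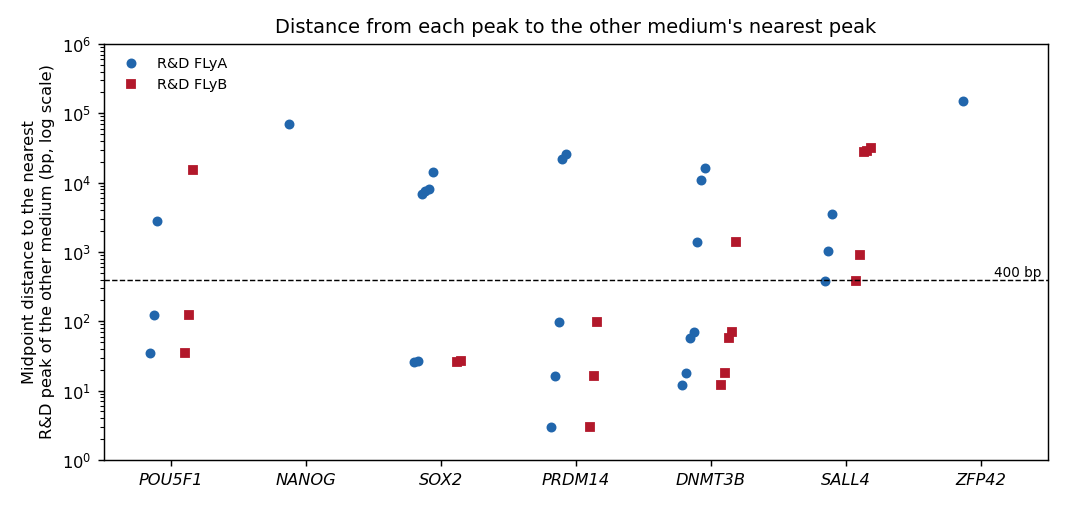
Distance in bp (log scale) from the midpoint of each R&D Systems peak to the nearest R&D Systems peak of the other medium, by gene, with circles for FLyA and squares for FLyB. The dashed line marks 400 bp, the width of a peak, below which peaks overlap. Shared sites sit at 3 to 124 bp except at SALL4 (380 bp), and the FLyA peaks of NANOG and ZFP42 are 71.2 and 149 kb from any FLyB peak.

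With the Santa Cruz antibody, 3 of 26 peaks were called again in FLyA (11.5%, exact 95% interval 2.45 to 30.2%) and 2 of 18 in FLyB (11.1%, 1.38 to 34.7%). Over the whole R&D Systems lists these shares were 3.02% and 10.0%. The difference in FLyA rests on 3 peaks. Counted from the Santa Cruz side, all 3 FLyA and both FLyB peaks in the windows fell on an R&D Systems peak of their own medium. Of the whole Santa Cruz lists, 31.9% and 79.0% did. The exact 95% intervals for the windows, 29.2 to 100% in FLyA and 15.8 to 100% in FLyB, include these list shares. Between the Santa Cruz lists, 1 of 3 in FLyA and 1 of 2 in FLyB overlapped the other medium, at the DNMT3B site, beside 10.1% and 8.28% of all Santa Cruz peaks. Sites with support from both antibodies were thus found at SOX2, PRDM14 and DNMT3B. At NANOG, POU5F1, SALL4 and ZFP42 every call rests on the R&D Systems antibody, whose lists are the longer ones.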

How the data were processed

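BRA ChIP-seq was carried out in H9 cells with 2 antibodies and 2 media, 1 library each. Per the labels, the submitters' processing notes name Bowtie 0.12.7 and hg19, and per the paper's methods the authors called peaks with MACS. The deposited lists hold positions only (start and end of 400 bp peaks). A MACS threshold of 1e-12 stands in the headers of the Santa Cruz files. For R&D Systems files the threshold is not given in the sources used here, nor is the library each list was called against, although the study normalised fold enrichment to input. Read numbers were not analysed here. Media were compared over antibodies by an exact permutation test, a comparison added after the data were seen.

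Peaks were assigned to genes by midpoint, and gene bodies were the windows less 50 kb on each side, known to 1 kb. Strands were taken from general knowledge and, for 4 genes, matched RefSeq. Overlaps (at least 1 bp) were computed with Python 3.11.15 and pandas 2.3.3 and checked with bedtools 2.31.1, after tests on simulated lists. Exact (Clopper-Pearson) intervals came from SciPy 1.17.1. Tiles ran from the start of each chromosome to its last peak. The text names all 7 genes and their neighbours. The genes and lists were chosen with earlier results of these data known. No genome or annotation of hg19 was used here, so letters in peaks and a list of other pluripotency genes were not examined.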

Additional observations from a re-analysis of the deposited data

How the results depend on the processing

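Alternatives covered the window, the overlap rule, the antibody and the tile width. With 20 kb on each side the windows held 21 FLyA and 13 FLyB peaks of the R&D Systems lists, and with 100 kb 34 and 24. By gene, 20 kb lowered the R&D Systems FLyA count at PRDM14 from 5 to 3 and at ZFP42 from 1 to 0, and the FLyB count at SOX2 from 2 to 1 and at PRDM14 from 3 to 1. At POU5F1 it left 3 FLyA and 2 FLyB peaks. A flank of 100 kb raised the FLyA count at NANOG from 1 to 3 and at SALL4 from 3 to 5, and the FLyB count at NANOG from 0 to 1 and at DNMT3B from 5 to 8. The Santa Cruz FLyB count fell to 1 with 20 kb, as the PRDM14 peak at 57.2 kb from its 5′ end lies outside. Requiring 200 bp of overlap removed the SALL4 site from the shared sites and lowered the shared part to 42.3% for FLyA, beside 30.7% of the whole list, and 61.1% for FLyB, beside 33.6%. A gap of up to 500 bp raised the FLyB share to 72.2%, beside 39.4% of the list, and left that of FLyA at 46.2%, beside 35.5%. In the Santa Cruz lists alone the shares were 33.3% of 3 peaks and 50% of 2. All of these shares stayed within the intervals of the reported values, which are wide. Merging overlapping peaks or counting any base inside a window changed no total. Wider tiles hold more peaks by construction. With tiles of 50 kb, 29.4% held an R&D Systems FLyA peak, 25% an R&D Systems FLyB peak, 3.75% a Santa Cruz FLyA peak and 4.43% a Santa Cruz FLyB peak, and with tiles of 200 kb 67.3%, 59.0%, 13.8% and 15.6%. A stricter threshold could not be tried because the lists carry no score, and the T-box letters in peaks were not run. The scan of promoters was added after the data were seen. Pairing the media by antibody left the difference of 0.65 on the log2 scale as it was, with an exact permutation p of 0.500 against 0.333 without pairing, each the smallest its design allows.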

Other observations

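The distance to the nearest Santa Cruz peak differed widely among the genes whose windows held none. For POU5F1 the nearest Santa Cruz FLyB peak was 106.3 kb from the 5′ end, at chr6:31031549-31031948, whereas the nearest FLyA peak was 1229.2 kb away. For NANOG these distances were 362.5 kb in FLyB and 184.0 kb in FLyA. For SALL4 they were 131.9 kb in FLyB and 246.0 kb in FLyA, and for ZFP42 1576.0 and 686.4 kb.

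Outside the SOX2 window, the nearest R&D Systems FLyB peak on either side was 578.2 kb from the window's edge, and the nearest FLyA peak 94.9 kb.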
